A study of Heterocephalus glaber with 9 samples.

Results

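The clock output factors of the liver are the PAR bZIP activators DBP, TEF and HLF, their competitor NFIL3, and the DEC repressors BHLHE40 (DEC1) and BHLHE41 (DEC2). These genes were chosen with earlier results of these data known. Their rows were taken by gene symbol, and 5 of the 6 symbols matched a row among the 16339 rows of the liver count table. HLF found no match by symbol and was not analysed here. The table holds RNA-seq counts of liver from 3 old and 6 young male naked mole-rats (Heterocephalus glaber), with 1 library per animal and no treatment named in the labels. By their labels the old animals were 20 (A), 30 (B) and 20 (C) years old and non-breeders, and the young animals were 2.7, 2.8, 3.4, 3.7, 3.8 and 4.1 years old, with no reproductive status given. The methods of the study give a minimum age for the old animals that is above the labelled age of A and C, and the labels are used here. Each young liver is named below by the age of its animal. The sources used here do not give the time of day at which the livers were taken.

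The circadian clock of mammalian cells is a feedback loop in which CLOCK or NPAS2 pairs with ARNTL (BMAL1) and switches on its own repressors, the PER and CRY proteins, through E-box elements. DBP, TEF and HLF are among the genes that this loop drives directly, and in mouse liver they pass its rhythm on by activating genes with a D-box, many of them in detoxification and in the metabolism of lipids and bile acids. NFIL3 (E4BP4) is a repressor that binds the same D-box, and the DEC proteins sit on E-boxes and oppose CLOCK and ARNTL there. In mice, DBP is among the liver transcripts that swing most strongly over the day.

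With 14541856 to 20464409 counts per liver, 1 count was worth 0.0448 to 0.0724 CPM, the normalised read count used below (the count relative to the TMM-scaled total of its library). All 5 measured members passed the filter on low counts. Hepatocyte RNA was plentiful, with albumin (ALB) at 11955 to 69097 CPM in the old livers and 90095 to 177159 CPM in the young ones. Liver A and the young liver of 4.1 years stood apart from the rest: their highest Spearman correlation with any other liver was 0.928 for A and 0.958 for the 4.1-year liver, against 0.984 to 0.992 for the other 7. Summed over 10 hepatocyte markers (0 of 10 past the threshold given below), the level was 36070, 119200 and 102600 CPM in A, B and C, against 134100 to 238000 CPM in young livers, and over 9 endothelial markers (3 higher, 1 lower) it was 1679, 672 and 700 CPM in A, B and C, against 388 to 690 CPM in young livers. Most of the hepatocyte sum was ALB in B, C and the young livers, and the list did not move as a whole: 7 of its 10 genes had a negative log2FC, while ARG1, APOA1 and HNF4A had values of 0.75, 1.07 and 0.16. The endothelial list was mixed in A. STAB1 (755 CPM) and STAB2 (433 CPM) led its sum, and these, CLEC4G, VWF and KDR were highest in A. PECAM1 (15.9 CPM), CDH5 (28.1 CPM) and LYVE1 (3.69 CPM) were lowest in A. The sums over 10 stellate cell markers (3 lower) and 4 erythroid markers (3 lower) were 113 to 167 and 55.7 to 97.7 CPM in old livers, against 218 to 309 and 213 to 899 CPM in young ones. Cholangiocyte markers (0 of 5) summed to 85.1, 203 and 213 CPM in A, B and C and 176 to 325 CPM in young livers, so only A lay below the young range. EPCAM led these sums, at 56.0, 190 and 206 CPM in A, B and C and 168 to 294 CPM in young livers. Of the 5 genes, 2 had a positive log2FC and 3 a negative one. No B cell marker passed the filter. The part of these cell types in the results below was not tested. Values without A or the 4.1-year liver are given where they matter. The old and the young samples also carry different prefixes in their descriptions, and all young samples are marked as re-used, so age and the origin of the library cannot be told apart.

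Of the 5 clock output genes, BHLHE41 was up-regulated in old livers, and DBP, TEF, NFIL3 and BHLHE40 did not pass the test. The comparison is edgeR's quasi-likelihood test of old against young, with Benjamini-Hochberg adjustment over 12277 genes and a threshold of FDR 0.1, and gives for each gene a log2 fold change (log2FC) with its standard error (SE). The count of 1 member in 5 compares with a background of 11.7% of all genes tested that were higher in old livers, so it does not set these genes apart. None of the members was lower in old livers by edgeR (0 past the threshold, 0 at an unadjusted p under 0.05, 0 by DESeq2 and 0 by limma voom), against 3.65% of all genes. In 0 of the 5 did the old livers lie wholly above or below the young ones, whereas this held for 17.8% of all genes tested (9.83% above and 8.01% below).

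**Figure D1:**
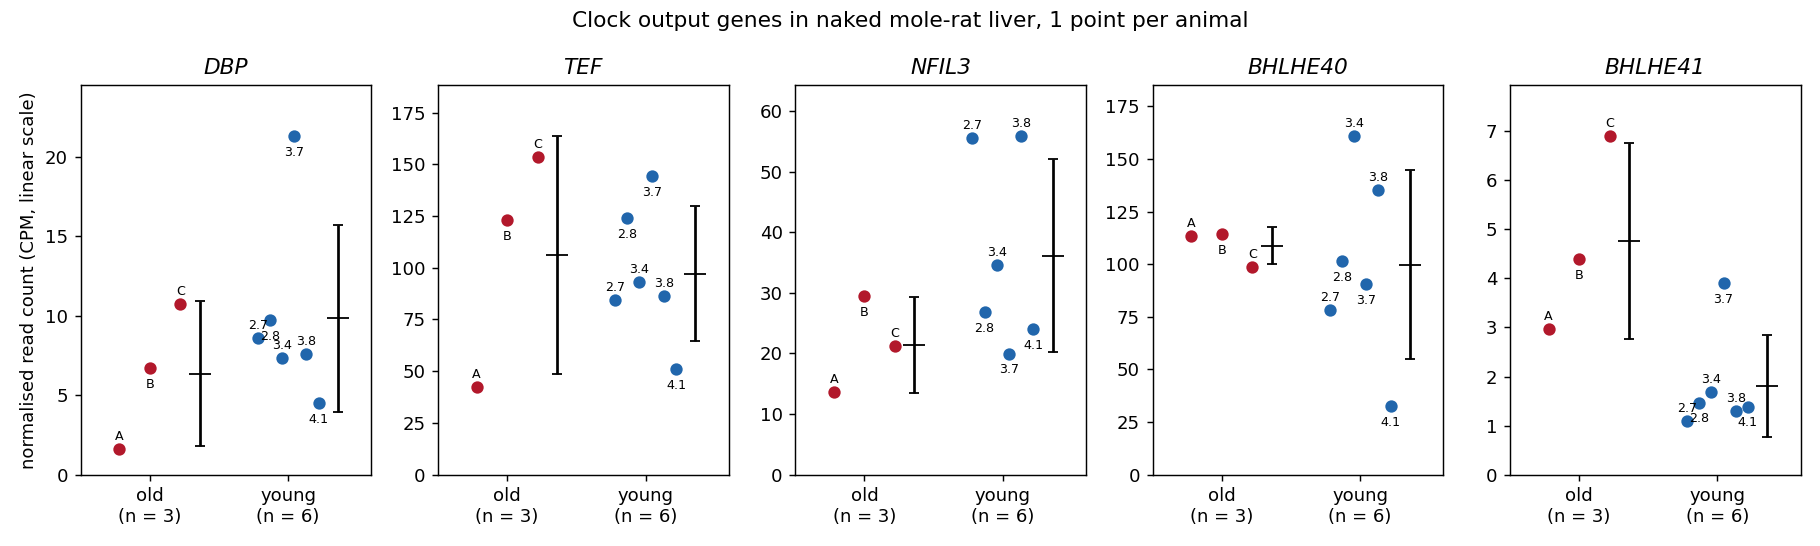
Normalised read counts (CPM, linear axis from 0) of the 5 measured clock output genes, with 1 point per liver, old livers by letter and young livers by age in years, and bars for mean ± SD. BHLHE41 is highest in old livers C and B, while the 3.7-year liver, at 3.90 CPM, lies above old liver A, at 2.96 CPM; in the other genes the groups overlap widely.

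BHLHE41, the DEC2 repressor, had 2.96, 4.39 and 6.91 CPM in old livers A, B and C, against 1.09, 1.47, 1.69, 3.90, 1.30 and 1.39 CPM in the young livers of 2.7, 2.8, 3.4, 3.7, 3.8 and 4.1 years. Every old liver was thus above 5 of the 6 young ones, and only the 3.7-year liver reached into the old range. The gene averaged 4.75 ± 2.00 CPM in old livers (SD, n = 3) and 1.81 ± 1.04 CPM in young livers (SD, n = 6), a log2FC of 1.39 (SE 0.43, edgeR FDR = 0.0767). These levels rest on 53 to 149 counts per old liver and 18 to 66 counts per young liver. The call was lost without old liver A (edgeR FDR = 0.108) or C (edgeR FDR = 0.18), and without the young liver of 2.7 (0.15), 2.8 (0.148), 3.4 (0.124) or 3.8 years (0.143). Without the 2.7-year liver the log2FC was 1.28, while genes called over the whole table fell from 1885 to 187. The fold change stayed positive, at 1.02 without C, 1.64 without A, and 1.77 without the 3.7-year liver (edgeR FDR = 0.0798).

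BHLHE40, its paralog DEC1, did not pass the test. It had 114, 114 and 98.8 CPM in old livers A, B and C, against 78.2, 101, 161, 90.5, 136 and 32.4 CPM in the young livers in order of age. The old livers lay close together in the middle of the young range, and the 4.1-year liver was far below all others. The log2FC was 0.13 (SE 0.40, edgeR FDR = 0.849), and it turned to -0.06 without the 4.1-year liver. Means were 109 ± 8.75 CPM in old livers (SD, n = 3) and 99.9 ± 45.0 CPM in young livers (SD, n = 6). Whether BHLHE41 and BHLHE40 differ in their fold change was not tested.

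The macrophage and T cell markers are set beside BHLHE41 because DEC proteins are also made in immune cells of mice. The 8 macrophage and Kupffer cell markers that passed the filter summed to 87.0, 561 and 513 CPM in old livers A, B and C. In young livers they summed to 253 to 362 CPM, and none of the 8 passed the test (CD163 was below the filter). MARCO, at 219 and 238 CPM, and LYZ led this sum in B and C. CD68, CLEC4F and CD5L lay above their young ranges in B, but these and CSF1R lay inside theirs in C. All 8 were lowest in A. The log2FC was positive in 5 of them and negative in 3, with a median of 0.09. The sum over 7 T and NK cell markers was 91.9, 293 and 293 CPM in A, B and C, against 388 CPM in the 3.7-year liver and 137 to 193 CPM in the other young livers. Nearly all of that sum was CD4, at 77.8 to 284 CPM in old livers and 133 to 383 CPM in young ones, while CD3D, CD3E and CD3G stayed at or below 1.39 CPM in every liver. NKG7, a granule gene of cytotoxic lymphocytes, was the only one of the 7 past the threshold (log2FC 1.76, edgeR FDR = 0.0312). Liver A was the lowest of all 9 in both sums, the second of which was led by CD4. Its NKG7 was the highest of the 9, at 7.99 CPM, against 4.39 and 5.10 CPM in B and C. In young livers NKG7 had 1.12 to 2.19 CPM. In bulk tissue, fewer cells of a type and less RNA per cell cannot be told apart, and the part of these cell types in the BHLHE41 difference was not tested.

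DBP, the founding D-box activator, had 1.62, 6.68 and 10.8 CPM in old livers A, B and C. The young livers of 2.7, 2.8, 3.4, 3.7, 3.8 and 4.1 years had 8.58, 9.72, 7.32, 21.3, 7.60 and 4.49 CPM. Liver A was the lowest of all, the 3.7-year liver the highest, and B and C lay among the remaining young livers. The mean was 6.35 ± 4.58 CPM in old livers (SD, n = 3) and 9.84 ± 5.89 CPM in young livers (SD, n = 6), with a log2FC of -0.63 (SE 0.58, edgeR FDR = 0.477). The difference was -0.18 without liver A, -0.24 without the 3.7-year liver and -1.24 without liver C. A few single libraries thus set its size, and it passed in none of these fits.

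TEF, the second D-box activator in the table, had 42.4, 123 and 154 CPM in old livers A, B and C. In the young livers it had 84.6, 124, 93.1, 144, 86.2 and 51.0 CPM in order of age. Liver A and the 4.1-year liver were the lowest, and C and the 3.7-year liver the highest, so both ends of the range held an animal of each age group. TEF averaged 106 ± 57.5 CPM in old livers (SD, n = 3) and 97.2 ± 32.8 CPM in young livers (SD, n = 6), a log2FC of 0.13 (SE 0.41, edgeR FDR = 0.847). It was 0.51 without liver A (edgeR FDR = 0.447), -0.24 without liver C and 0.00 without the 4.1-year liver. With limma voom, which gives libraries that stand apart less weight, TEF passed the threshold as higher in old livers (log2FC 0.47, voom FDR = 0.0922).

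NFIL3, the D-box repressor, had 13.6, 29.4 and 21.2 CPM in old livers A, B and C, against 55.6, 26.8, 34.7, 20.0, 55.9 and 24.0 CPM in the young livers in order of age. The 2.7-year and 3.8-year livers were far above the others, and the old livers lay at or below 29.4 CPM, with A at the bottom. Means were 21.4 ± 7.89 CPM in old livers (SD, n = 3) and 36.2 ± 15.9 CPM in young livers (SD, n = 6), and the log2FC was -0.75 (SE 0.39, edgeR FDR = 0.222). It was negative in all 19 alternative fits (-1.06 to -0.51), with an FDR from 0.136 to 0.567, so NFIL3 did not pass in any of them.

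**Figure D2:**
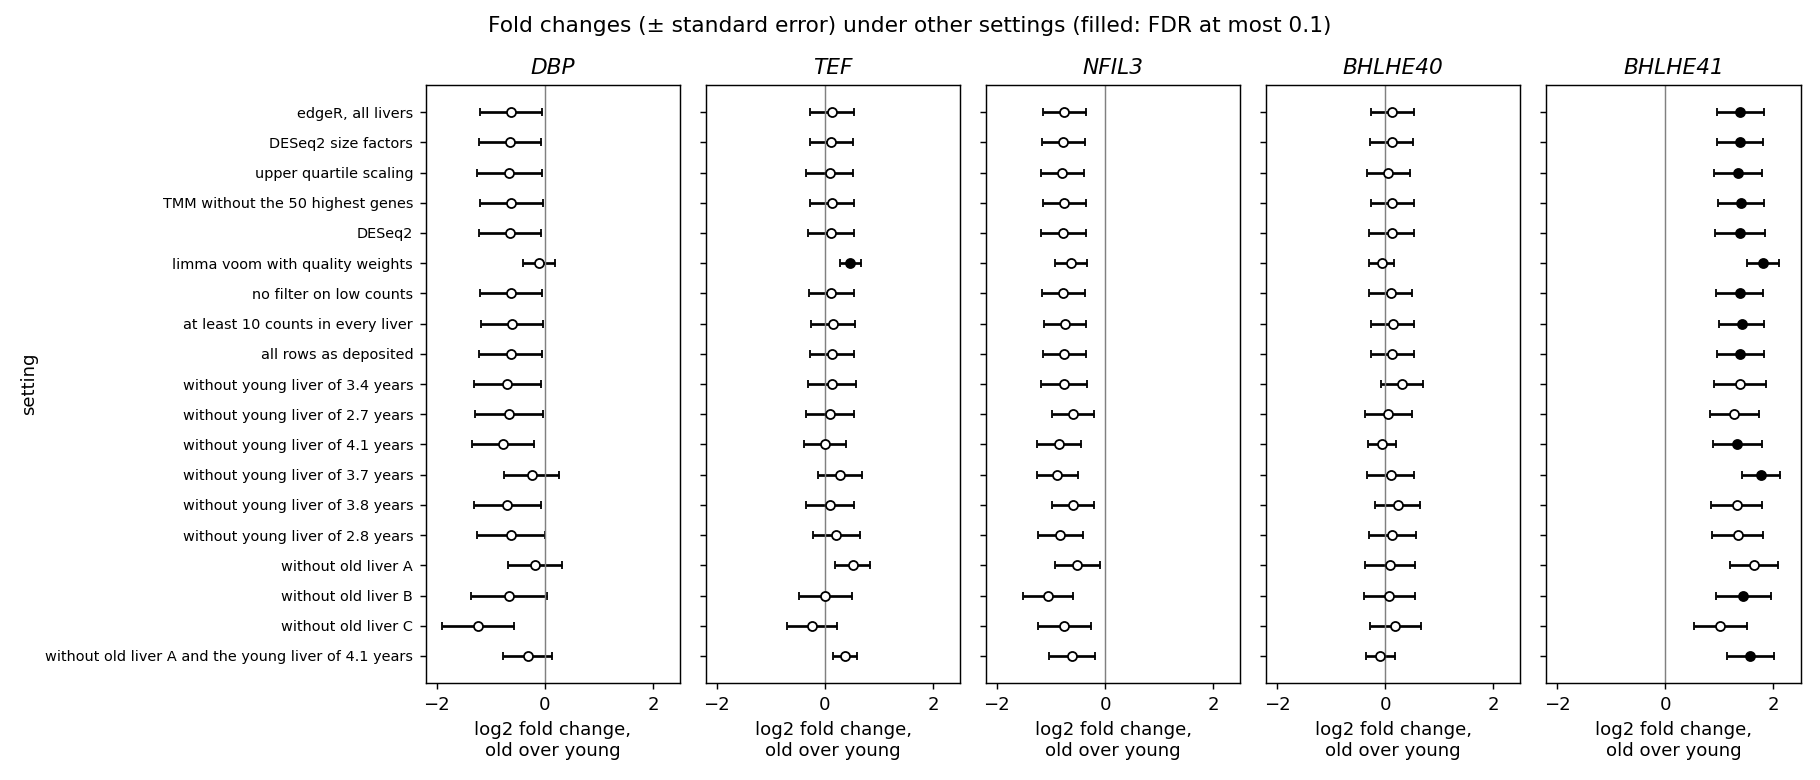
Log2 fold changes of the clock output genes, old over young, with standard errors (horizontal axis), under each alternative setting and without each liver (rows). Filled points have an FDR of at most 0.1. BHLHE41 is positive in every row, from 1.02 to 1.81, but filled only in some, and TEF is filled in the voom row alone.

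Since NFIL3 and the PAR bZIP proteins compete for the same D-box, their levels were also set against each other within each liver. Relative to the median of the young livers, the log2 ratio of DBP to NFIL3 was -0.68, 0.19 and 1.34 in old livers A, B and C. In young livers it ran from -0.56 in the 3.8-year liver to 2.4 in the 3.7-year liver. The ratio of TEF to NFIL3 was 0.37, 0.81 and 1.6 in A, B and C, against -0.65 to 1.59 in young livers. The ranges of old and young livers overlapped in both ratios. The 3.7-year liver and old liver C had the highest 2 values in each.

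Across livers, DBP and TEF went together (Pearson r = 0.871, Spearman rho = 0.817 over the 9 livers; r = 0.602, rho = 0.607 over the 7 livers without A and the 4.1-year liver). TEF and NFIL3 had r = 0.153 and rho = -0.117 over the 9 livers, but r = -0.955 and rho = -0.929 over the 7, the largest in size of the 10 pairs among members. BHLHE41 was higher where TEF was higher (r = 0.455 over the 9 and 0.858 over the 7) and where NFIL3 was lower (r = -0.616 over the 9 and -0.793 over the 7). These are descriptions: the points share the scaling of their libraries, mix the ages, and the 7 livers were singled out by their overall profile.

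**Figure D3:**
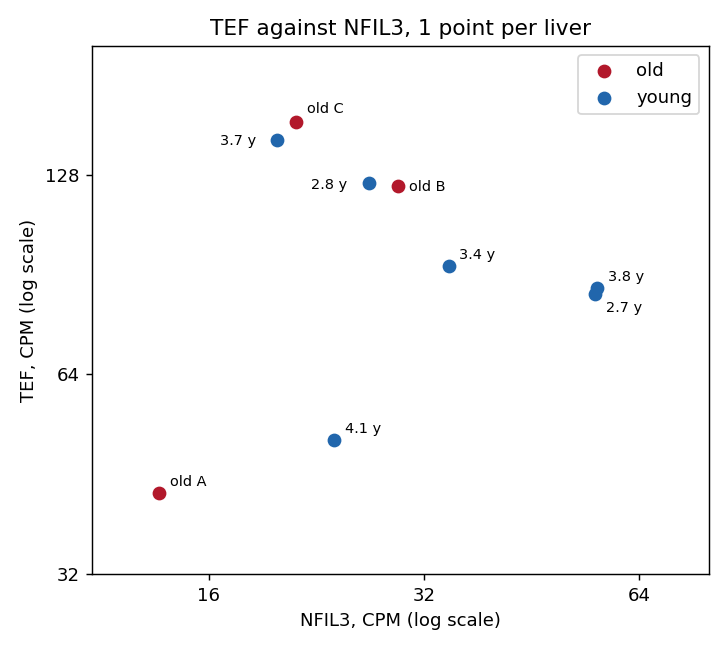
TEF against NFIL3 (CPM, both axes logarithmic), with 1 point per liver, old in red and young in blue. In 7 livers TEF tends to be lower where NFIL3 is higher, with old livers B and C among the young ones, and old liver A and the 4.1-year liver lie apart at low TEF, at 42.4 and 51.0 CPM.

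The members varied widely among the young animals alone. The SD of log2 CPM over the 6 young livers was 0.73 for DBP, 0.52 for TEF, 0.63 for NFIL3, 0.81 for BHLHE40 and 0.62 for BHLHE41. Among all genes tested these SDs stood at percentiles 85.1, 69.2, 78.9, 89.0 and 77.9, and without the 4.1-year liver at 91.7, 70.6, 92.3, 79.8 and 93.1. BHLHE41 and DBP had the fewest counts of the members, with 18 to 149 and 29 to 361 per liver.

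By the correlation of log2 CPM over the 9 livers, among 11390 candidate genes, the genes most like DBP were MTDH (r = 0.979), WARS2 (0.968), the mitochondrial tryptophanyl-tRNA synthetase, and SCCPDH (0.963). Those most like TEF were RNASE6 (0.974), MAPRE2 (0.969) and LONRF3 (0.969), and those most like NFIL3 were RNF139 (0.966), a ubiquitin ligase of the endoplasmic reticulum, the phosphatase DUSP7 (0.963) and TMCC3 (0.956). For these 9 the correlation was 0.915 to 0.988 over the 7 livers without A and the 4.1-year liver. BHLHE41 was most like WDR72 (0.926), the transcription factor SP2 (0.921) and UNC93B1 (0.902), which carries Toll-like receptors to endosomes. For BHLHE40, AFG3L2 (0.953), ABCA7 (0.936) and RBM23 (0.930) came first, with lower values of 0.777, 0.799 and 0.868 over the 7 livers. Only UNC93B1 of these 15 genes passed the test between the ages, with 15.4 to 24.8 CPM in old livers and 8.97 to 13.9 CPM in young livers (log2FC 0.93, edgeR FDR = 0.0541). That call was lost without the 2.7-, 2.8-, 3.7- or 3.8-year liver. RNF139 did not pass (log2FC -1.02, edgeR FDR = 0.126), although its 3 old livers, at 36.8 to 70.8 CPM, lay below all young ones, at 72.1 to 192 CPM.

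The loop that drives the clock output genes was compared in the same fit. Of 4 genes of its positive limb that were tested, ARNTL and NPAS2 rose in old livers. ARNTL had 8.58 to 23.0 CPM in old livers and 4.27 to 7.53 CPM in young livers, with no overlap (log2FC 1.35, SE 0.30, edgeR FDR = 0.0436). NPAS2, the CLOCK paralog, had 37.1 to 87.6 CPM in old livers and 21.7 to 39.6 CPM in young livers (log2FC 0.94, edgeR FDR = 0.0762). The nuclear receptor RORA, which activates ARNTL, had a log2FC of -0.76 and did not pass (edgeR FDR = 0.335). The call of ARNTL was lost without liver A (log2FC 0.93, edgeR FDR = 0.114) and without the 2.7- or 2.8-year liver. Without the 2.7-year liver its log2FC was 1.33, while genes called over the whole table fell from 1885 to 187. NPAS2 lost its call without A (log2FC 0.46, edgeR FDR = 0.301) or any of the young livers except that of 4.1 years. CLOCK and ARNTL2 found no match by symbol, and RORB was below the filter.

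Of the 6 tested genes of the negative limb, NR1D1 (REV-ERB alpha), the repressor of ARNTL, rose and 5 did not pass. It had 87.1 to 180 CPM in old livers and 28.1 to 69.1 CPM in young livers, with no overlap (log2FC 1.56, SE 0.34, edgeR FDR = 0.0430). NR1D1 overlaps THRA on the opposite strand in mammals, and no source used here gives the strand setting of the counting, so reads of the neighbours may not be told apart. Without liver A, or without the 2.7- or 2.8-year liver, NR1D1 did not pass (log2FC 1.22 and edgeR FDR = 0.115 without A). ARNTL and its repressor were thus each higher in old livers. The E-box targets PER1, PER2, CRY1 and CRY2 had log2FC values of 0.17, 0.68, -0.20 and 0.80, and NR1D2 (REV-ERB beta) one of 0.06, with FDRs of 0.183 to 0.932 from edgeR. Among the young livers PER1 was highest at 314 CPM in the 3.8-year liver, where NFIL3 was also highest. In the 3.7-year liver, where DBP was highest, NR1D1 (69.1 CPM) and RORA (17.4 CPM) were the highest of the young livers too.

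**Figure D4:**
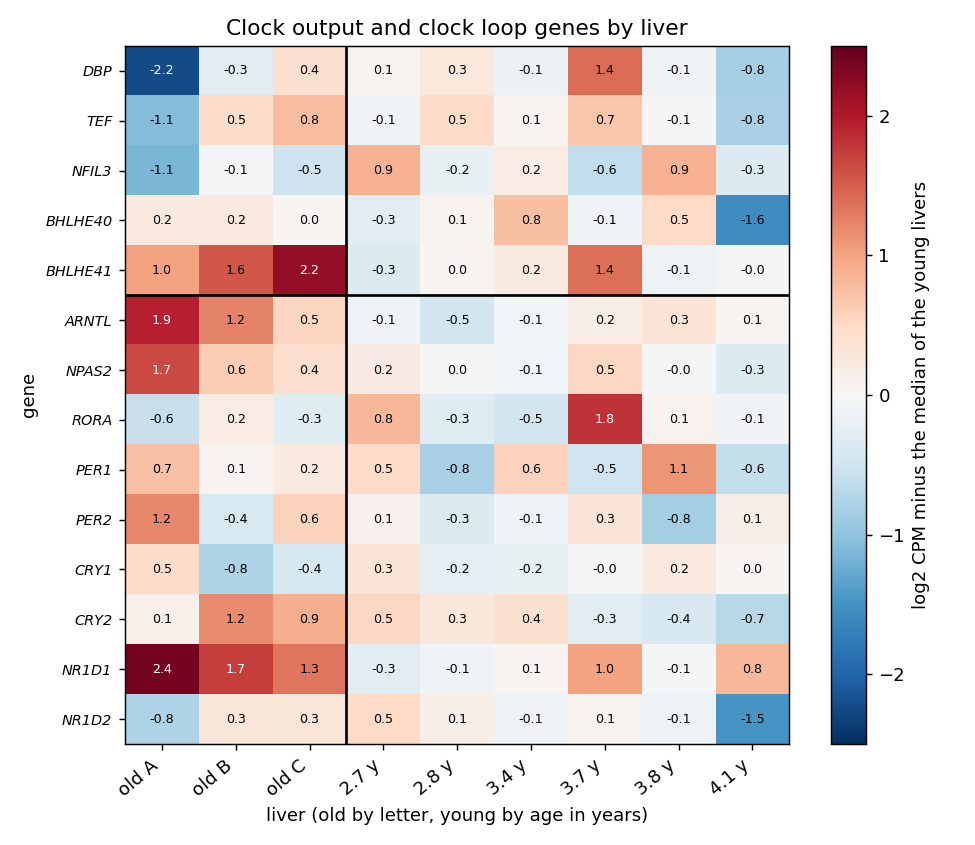
Log2 CPM of the clock output genes (above the line) and the clock loop genes (below it) in each liver (columns, old livers to the left), as the difference from the median of the young livers. Of the clock loop genes shown, ARNTL, NPAS2, NR1D1, PER1 and CRY2 are above 0 in all 3 old livers. NR1D1 is also at 1.01 in the 3.7-year liver and 0.83 in the 4.1-year liver. BHLHE41 is at 1 or more in the 3 old livers and in the 3.7-year liver, and DBP is lowest in old liver A, at -2.24.

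Of 10 kinases and ubiquitin ligases that set the stability of PER and CRY proteins, 3 rose, 0 fell (0 by edgeR at an unadjusted p under 0.05, 0 by DESeq2 and 1 by voom) and 7 did not pass. Casein kinase CSNK1E averaged 12.3 ± 8.68 CPM in old livers (SD, n = 3) and 3.02 ± 1.34 CPM in young livers (SD, n = 6) (log2FC 2.03, edgeR FDR = 0.0436). CSNK1D (1.13, edgeR FDR = 0.0520) and GSK3A (1.12, edgeR FDR = 0.0624) also rose, and in all 3 kinases the old livers lay wholly above the young ones, with A the highest. Without A the log2FC was 1.29 for CSNK1E, 0.56 for CSNK1D and 0.61 for GSK3A, and CSNK1D alone passed. The number of the 3 called fell to 0 without the 2.7-year liver and to 1 without the 2.8-, 3.7- or 3.8-year liver. The ligase BTRC had a log2FC of 0.17 and did not pass.

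**Figure D5:**
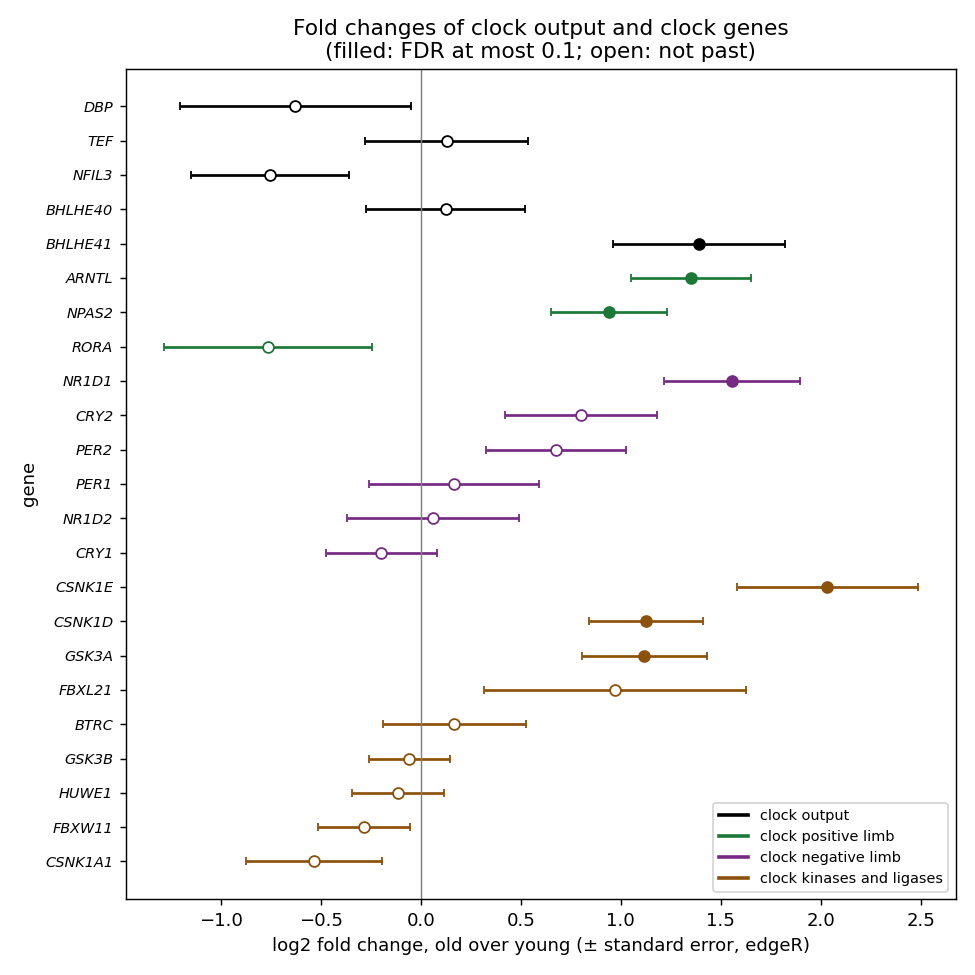
Log2 fold changes, old over young, with standard errors from edgeR, for the clock output genes (black), both limbs of the clock loop (green and purple) and kinases and ligases (brown), 1 named gene per row. Filled points are past FDR 0.1: BHLHE41 is the only clock output gene among them, at 1.39, beside ARNTL, NPAS2, NR1D1 and 3 kinases.

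Of 11 tested genes that carry D-boxes or respond to PAR bZIP factors or NFIL3 in mouse liver, FGF21 rose, CYP7A1 and CES1 fell, and 8 did not pass. The log2FC was negative in 9 and positive in 2, with a median of -0.27, against 0.02 over all genes tested. This lean was not particular to the list. Hepatocyte markers had 7 of 10 negative and a median of -0.37. Among 12 other genes that cycle in mouse liver, 8 were negative, with a median of -0.3. The remaining lists of related and clock genes had positive medians. With voom, 5 of the 11 were called lower and 1 higher in old livers, against 2052 lower and 2511 higher of all 12277 genes. CYP7A1, the rate-limiting enzyme of bile acid synthesis and a DBP target in rodents, had 18.4, 20.1 and 31.4 CPM in old livers A, B and C, against 42.7 to 211 CPM in young livers (log2FC -2.32, SE 0.48, edgeR FDR = 0.0390). The old livers lay wholly below the young ones. The carboxylesterase CES1 had 1497 to 3285 CPM in old livers and 4999 to 7535 CPM in young livers (log2FC -1.36, edgeR FDR = 0.0447). FGF21, a fasting hormone of the liver that NFIL3 represses in mouse hepatocytes, had 66.3, 113 and 178 CPM in old livers A, B and C, against 0.651 to 12.3 CPM in young livers (log2FC 4.22, edgeR FDR = 0.0376). The old livers lay wholly above the young ones, and whether FGF21 or CYP7A1 followed the members was not tested. CYP7A1 and FGF21 passed in all 9 fits that left out 1 liver, and CES1 in all but those without the 2.7-, 2.8- or 3.7-year liver. The regulators of detoxification linked to the PAR bZIP factors in mice, NR1I3 (CAR), POR and ALAS1, had log2FC values of -0.27, -0.29 and -0.39 and did not pass.

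Of 12 other genes that cycle in mouse liver, LPIN1 rose, CCRN4L fell and 10 did not pass. LPIN1, a phosphatidate phosphatase, had 154 to 457 CPM in old livers and 54.2 to 117 CPM in young livers (log2FC 1.56, edgeR FDR = 0.0462). CCRN4L (nocturnin), a rhythmic phosphatase of NADPH, had 15.0, 3.09 and 4.17 CPM in A, B and C, against 8.40 to 52.2 CPM in young livers (log2FC -2.17, edgeR FDR = 0.0808). The call of LPIN1 was lost without A (log2FC 0.88) or without the 2.7-, 2.8- or 3.7-year liver, and that of CCRN4L without any liver but A or the 4.1-year one. NAMPT, the salvage enzyme of NAD synthesis that CLOCK and ARNTL drive in mice, had a log2FC of -0.76 and did not pass (edgeR FDR = 0.462).

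The relatives of the members by DNA-binding domain were compared last. Of 11 other bZIP factors, CREB3L3, CEBPD and DDIT3 rose, 0 fell (0 by edgeR at an unadjusted p under 0.05, 0 by DESeq2 and 0 by voom) and 8 did not pass. CREB3L3 (CREBH), a liver factor of fasting metabolism, had 175 to 218 CPM in old livers and 60.2 to 96.2 CPM in young livers (log2FC 1.33, SE 0.22, edgeR FDR = 0.0312). CEBPD had 106 to 289 CPM in old livers and 22.3 to 90.1 CPM in young livers (log2FC 1.82, edgeR FDR = 0.0447). DDIT3 (CHOP) had a log2FC of 1.68 (edgeR FDR = 0.0587), and its groups overlapped. CREB3L3 passed in all 9 fits that left out 1 liver. CEBPD did not pass without A (log2FC 1.21) or without the 2.7- or 2.8-year liver, and DDIT3 without A (log2FC 0.92) or any young liver but that of 4.1 years.

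Of 9 other bHLH repressors and ID proteins tested, the relatives of the DEC genes, ID1, HES4, HES1 and ID3 rose, 0 fell (0 by edgeR at an unadjusted p under 0.05, 0 by DESeq2 and 1 by voom) and 5 did not pass. ID1, which blocks bHLH factors by binding them off DNA, had 26.0, 51.6 and 36.3 CPM in old livers A, B and C, against 2.19 to 10.8 CPM in young livers (log2FC 2.86, SE 0.43, edgeR FDR = 0.0217). ID3 had a log2FC of 1.18 (edgeR FDR = 0.0522) and HES4 one of 1.62 (edgeR FDR = 0.0376). HES1 averaged 60.3 ± 52.2 CPM in old livers (SD, n = 3) and 18.9 ± 5.41 CPM in young livers (SD, n = 6), with liver A at 121 CPM and liver C, at 27.9 CPM, barely above the highest young liver, at 27.8 CPM (log2FC 1.68, edgeR FDR = 0.0529). ID1 and HES4 passed in all 9 fits that left out 1 liver, while HES1 did not pass without A (log2FC 0.68) or without the 2.7-, 2.8-, 3.7- or 3.8-year liver, and ID3 without the 2.7-, 2.8- or 3.7-year liver. Over all 9 lists of related and clock genes, 18 of 81 tested genes rose and 3 fell, or 25.9%, against 15.4% of all genes tested. The number called was 5 to 25 when 1 liver was left out, with 5 without the 2.7-year, 7 without the 2.8-year, 10 without the 3.7-year, 13 without the 3.8-year liver and 10 without A. The lists were picked for their biology, but with earlier results of these data known, and this difference was not tested.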

How the data were processed

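Liver RNA of 3 old and 6 young male naked mole-rats was compared. Per the labels and the paper, the authors mapped polyadenylated, single-end reads with STAR (version 2.4.1d), kept reads with a unique place, and counted them per gene of their own annotation with HTSeq (version and strand setting: not given in the sources used here). The deposited values are raw counts. Left out were 93 rows (0.319% of counts) whose order depends on letter case, where old and young values appear shifted against each other, and 25 rows with symbols turned into dates (0.133%); no member lies among them. No 2 libraries agreed within sampling noise (lowest chi-square per degree of freedom 27.78).

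Counts were tested in R 4.3.3 with edgeR 4.0.16 (filterByExpr, TMM, robust glmQLFit, glmQLFTest, no covariates, FDR 0.1), old minus young. The standard error is the size of the log2 fold change divided by the square root of F. Correlations used log2 CPM with a prior count of 2. Alternatives were other scalings, DESeq2 1.42.0, voom of limma 3.58.1, other filters, all rows, FDR 0.05 and leaving livers out. The fits were tested on simulated counts. Members, gene lists and the rows to leave out were chosen with earlier results of these data known. Named were all members, each listed gene past the threshold (or the 2 with the lowest p), and the 3 genes most correlated with each member (mean log2 CPM of 0 or more, no LOC symbols); other list genes named were chosen after their values were seen. Some listed genes are counted but not reported here by name. Coordinates and sequences were not used here.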

Additional observations from a re-analysis of the deposited data

Results flagged for a closer look

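In 3 of the 41 genes named by rule, a single young liver lay far from the other 5 by Dixon's test, and each time it was the liver of 3.7 years. DBP was at 21.3 CPM there, against 9.72 CPM in the next highest young liver. BHLHE41 was at 3.90 CPM, against 1.69 CPM in the next. WDR72 was at 6.62 CPM. It was named because it is the gene most like BHLHE41 over these same livers, so its flag is not independent of that of BHLHE41. Chance alone flags about 1 in 20 groups, and the 41 genes are not independent, so the 3 flags cannot be weighed against that rate. Without this liver the log2 fold change of DBP was -0.24 and that of BHLHE41 1.77. The T and NK cell marker sum was also highest there, at 388 CPM, but CD4 alone made up 383 CPM of it. NKG7 was lower there than in any other liver, at 1.12 CPM. The part of these cells was not tested.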

How the results depend on the processing

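No paired analysis was possible because the old and young livers came from different animals, and the labels pair none of them. BHLHE41 kept its direction in all 19 alternatives and lost its call in 7, including FDR 0.05. DBP and NFIL3 kept theirs in all 19 and were never called. TEF was called with voom (0.47), and turned to 0.00 without the 4.1-year liver and -0.24 without liver C (range without any liver, -0.24 to 0.51). BHLHE40 turned to -0.06 with voom, -0.06 without the 4.1-year liver and -0.09 without A and the 4.1-year liver (range without any liver, -0.06 to 0.32). Members called higher numbered 2 with voom, 0 at FDR 0.05 and 0 to 1 without any liver; 0 were called lower throughout. Genes called over the whole table numbered 1885 (1437 higher, 448 lower), against 2847 with DESeq2 (1777 and 1070), 4563 with voom (2511 and 2052), 420 at FDR 0.05, 3209 without A and the 4.1-year liver (1758 and 1451), and 187 (without the 2.7-year liver) to 2933 (without the 4.1-year liver) without any liver. Genes called in the related lists numbered 21, against 39 with voom, 12 at FDR 0.05, and 5 to 25 without any liver, lowest without the 2.7-year liver. None of the 21 list genes past the threshold, nor UNC93B1, changed direction in any alternative that tested it. The causes were not tested, beyond the threshold itself for FDR 0.05. BHLHE41 had 53 to 149 counts per old liver and 18 to 66 per young liver, and the part of depth in its call was not tested.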

Other observations

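Genes that respond to glucocorticoids and to low oxygen, signals that act on PER1, NFIL3 or BHLHE40 in other mammals, were also compared. Of all genes tested, 11.7% were called higher and 3.65% lower. Of 9 glucocorticoid-responsive genes tested, ZBTB16 rose, with 21.7 to 38.0 CPM in old livers and 3.17 to 15.3 CPM in young livers (log2FC 1.51, SE 0.46, edgeR FDR = 0.0747), and 8 did not pass, while voom called 2 higher and 3 lower (2511 higher and 2052 lower of all 12277 genes). The log2FC was positive in 5 of the 9 and negative in 4, with a median of 0.33. FKBP5 and TSC22D3, widely used readouts of the receptor, had log2FC values of 0.49 (edgeR FDR = 0.552) and 0.33 (edgeR FDR = 0.432). Of 9 hypoxia-responsive genes, VEGFA and KDM3A rose and 7 did not pass. Their log2FC was positive in 7 and negative in 2, with a median of 0.54. By edgeR at an unadjusted p under 0.05, 4 were higher and 0 lower. VEGFA had 118 to 134 CPM in old livers and 47.9 to 78.8 CPM in young livers (log2FC 1.04, SE 0.22, edgeR FDR = 0.0410), and KDM3A, a histone demethylase, averaged 24.9 ± 9.32 CPM in old livers (SD, n = 3) and 12.6 ± 1.23 CPM in young livers (SD, n = 6; log2FC 0.98, edgeR FDR = 0.0508). Leaving out 1 liver ended the call of VEGFA without the 2.7-year liver, that of KDM3A without A or the 2.7-, 2.8-, 3.7- or 3.8-year liver, and that of ZBTB16 without any liver but C or the 4.1-year one. BHLHE40, itself a hypoxia target in human cells, was at 98.8 to 114 CPM in old livers, inside the young range of 32.4 to 161 CPM. The part of either signal in the clock output genes was not tested.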
